A study of Mus musculus with 194 samples.

Results

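Slc1a2, Slc1a3 and Glul are 3 of the 21631 protein-coding gene loci counted in a series of viral calling card tables from mouse brain. They form a set whose products clear glutamate from the synapse in astrocytes. Slc1a2 encodes the glutamate transporter EAAT2, Slc1a3 encodes the glutamate transporter GLAST, and Glul encodes glutamine synthetase, which turns the glutamate that was taken up into glutamine. In the cortex the transporters sit on astrocyte membranes around synapses, and the glutamine made by Glul is passed back to neurons, where it is turned into glutamate or GABA again. A calling card is a transposon that the piggyBac transposase inserts at TTAA sites. The unfused transposase enters open chromatin and enhancers often, so a count of insertions at a gene describes the chromatin of the cells that carried the transposase and is not a measure of RNA.

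The series held 194 library records, which the submitters combined into 47 deposited tables, 46 from animals and 1 from N2a cells, a mouse neuroblastoma line. The animals received adeno-associated virus at postnatal day 0 to 1. C57bl6J (n = 2) were wild-type mice given virus that needs no Cre. Syn1Cre (n = 6) and GFAPCre (n = 6) carried the named Cre line, which is used for neurons (Syn1 promoter) or astrocytes (GFAP promoter), and Syn1CreNeg (n = 6) and GFAPCreNeg (n = 6) carried the same names with the suffix Neg, which marks mice without Cre. GFAP promoters can also drive Cre in precursors that later form neurons. Frontflip_GFAPCre (n = 3) and Frontflip_GFAPCreNeg (n = 3) had another virus design, named Frontflip in the labels. Syn1Cre_SP1_P28 (n = 4) and Syn1Cre_SP1_P10 (n = 3) were Syn1Cre mice, taken at postnatal day 28 or 10, whose label adds SP1, the name of a zinc finger factor that binds GC boxes. An age is stated for these SP1 groups only. Rbp4Cre_TRAP (n = 4) came from whole forebrain of a line in which Cre marks neurons of a deep cortical layer. TRAP, which the labels do not spell out, is in this field the name for purifying RNA on the tagged ribosomes of a marked cell type. All of these were read from RNA, whereas BrokenHeart (n = 3) was read from cortical DNA by inverse PCR. For the cortical RNA libraries the cortex was dissected into 10 pieces that were indexed apart.

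A locus was the GRCm38.p6 gene span with 10 kb on each side, and its level is the number of rows (insertions) there for every 1000000 insertions of the table, written as CPM (counts per 1000000). Slc1a2 spans chr2:102658239-102790784 on the plus strand, Slc1a3 chr15:8634124-8710807 on the minus strand and Glul chr1:153899929-153909723 on the plus strand. With the flanks, the loci measured 152.5, 96.7 and 29.8 kb. In the 46 animals they held 8841, 9104 and 1447 insertions. The locus of Pamr1, the gene next to Slc1a2, overlapped that of Slc1a2 over 4803 bases, which held 1081 of the 8841 insertions. Depth varied widely. Tables held 2341 to 9601 insertions in Frontflip_GFAPCreNeg, 97519 to 556145 in Syn1CreNeg, 208057 to 597230 in GFAPCreNeg, 443158 to 1364948 in Syn1Cre, 600443 to 1505413 in GFAPCre and 1545951 to 2186743 in C57bl6J. The other animal groups lay between 24408 and 577609. Within the 12 sets that a member formed with a group of 6 animals, the highest animal was the shallowest table in 9 sets and among the 2 shallowest in 11. The part of depth in the differences below was not tested, beyond the fits with the log2 total as a covariate that are given for some of them. The comparisons share groups, Syn1Cre above all, so they are not independent of each other.

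The 250 bases before each listed start are shown because they hold, or lack, the TTAA that an insertion needs, and because SP1 binds GC boxes. They are RefSeq sequences of GRCm38.p6, written 5′ to 3′ on the strand of the gene, at chr15:8710808-8711057 for Slc1a3, chr1:153899679-153899928 for Glul and chr2:102706188-102706437 for Slc1a2. Capitals mark TTAA in Slc1a3 and Slc1a2, and the GC box GGGCGG in Glul.
Slc1a3: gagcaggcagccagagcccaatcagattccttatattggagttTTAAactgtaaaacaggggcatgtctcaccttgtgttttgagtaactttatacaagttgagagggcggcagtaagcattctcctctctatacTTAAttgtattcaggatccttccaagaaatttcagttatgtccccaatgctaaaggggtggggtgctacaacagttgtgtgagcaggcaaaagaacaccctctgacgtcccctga
Glul: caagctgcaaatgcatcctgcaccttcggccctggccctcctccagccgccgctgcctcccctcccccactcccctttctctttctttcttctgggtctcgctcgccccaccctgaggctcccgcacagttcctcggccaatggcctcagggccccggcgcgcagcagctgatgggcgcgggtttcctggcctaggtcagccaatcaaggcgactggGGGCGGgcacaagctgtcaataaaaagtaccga
Slc1a2: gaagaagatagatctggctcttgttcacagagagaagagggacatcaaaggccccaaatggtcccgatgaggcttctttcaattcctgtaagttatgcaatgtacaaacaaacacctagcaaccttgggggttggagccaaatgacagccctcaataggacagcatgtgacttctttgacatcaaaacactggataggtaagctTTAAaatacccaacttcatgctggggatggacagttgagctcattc

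TTAA occurred in 48.6% and GGGCGG, searched on both strands, in 46.9% of 17274 promoter windows of 300 bases (250 before and 50 after the start). The Slc1a3 window held 3 TTAA sites, at -112 and -204 bases from the start (shown above) and at 29 bases after it. They carried 34, 28 and 25 insertions, in 22, 16 and 18 of 46 animals, and no insertion in the window lay off a TTAA. Its 250 bases also held 1 GC box, left in lower case. The Glul window held no TTAA and no insertion, and 64.8% of the 250 bases were G or C. Its nearest used site lay at -259 bases from the start, just outside the window, with 184 insertions in 39 animals. For Slc1a2 the promoter table lists a start 48.2 kb inside the gene span. Its window held 1 TTAA and no insertion. The start of the span itself had 516 insertions within 1 kb, at 8 positions, the nearest at -65 bases from it, whereas the inner start had 57 at 5 positions.

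**Figure D1:**
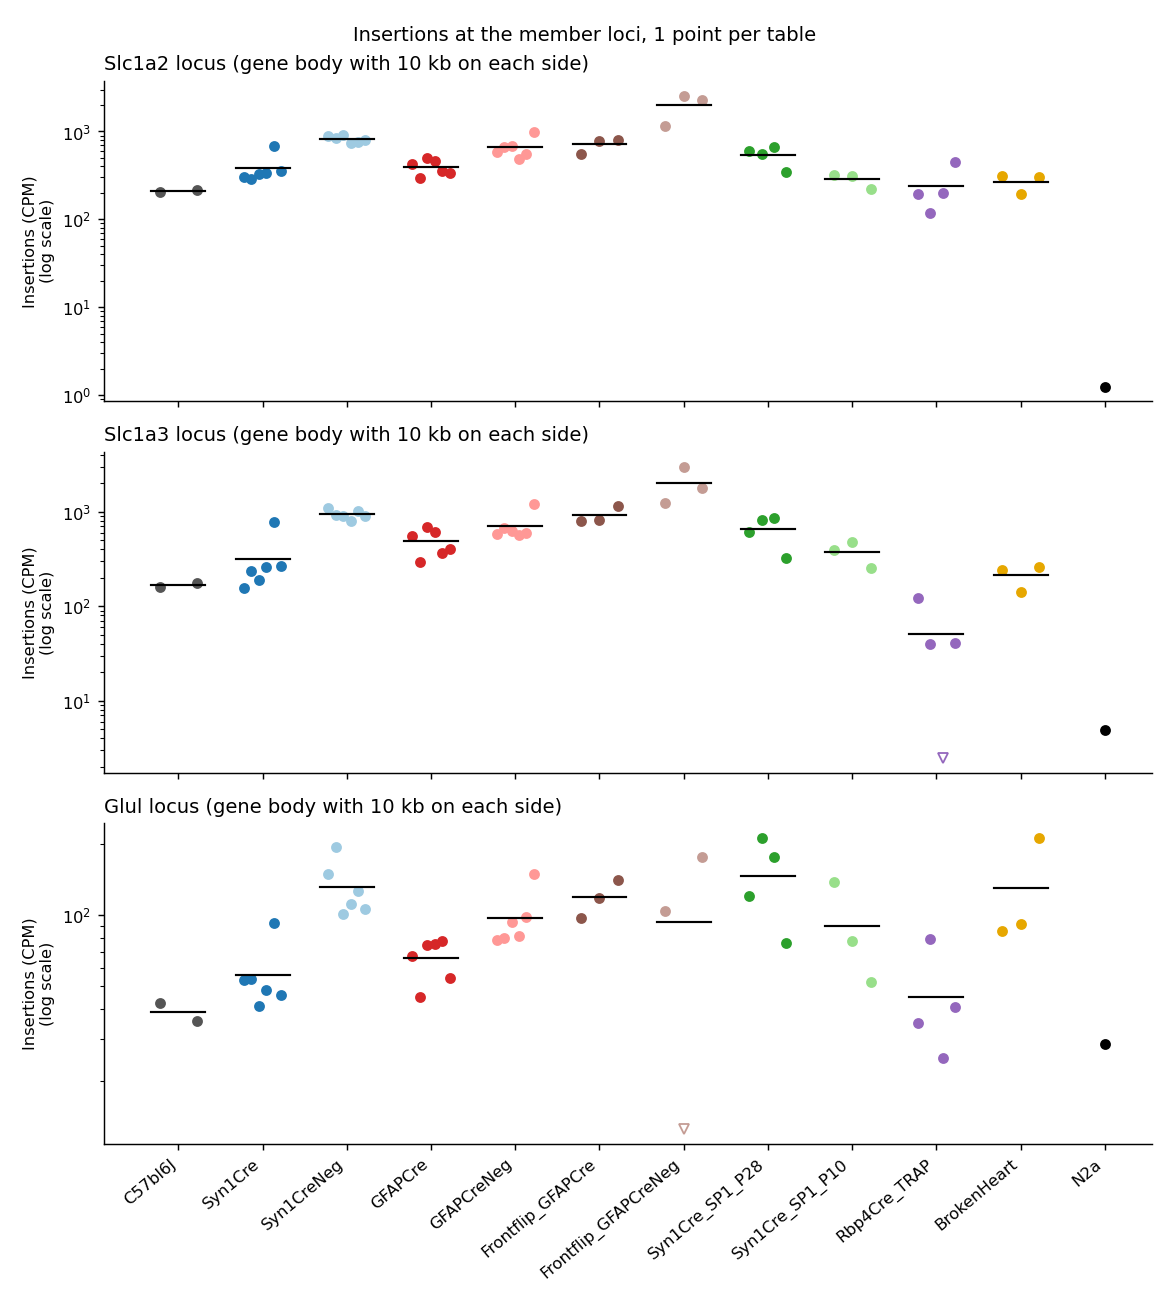
Insertions in CPM (log axis) at Slc1a2, Slc1a3 and Glul, with 1 point per table, a black line at each group mean and open triangles where a table had 0 insertions at the locus. Syn1CreNeg stood above Syn1Cre at all 3 loci, and N2a had 1.24 at Slc1a2 but 28.5 at Glul.

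Among the groups of animals, the mean of Slc1a2 was lowest in wild-type mice and highest in the shallow tables of Frontflip_GFAPCreNeg. In C57bl6J it was 205 and 214 CPM. Syn1Cre animals had 286 to 677 with a median of 333, and GFAPCre animals 297 to 496 with a median of 390. The groups without Cre were higher, at 730.0 to 924 (median 824) in Syn1CreNeg and 489 to 981 (median 627) in GFAPCreNeg. Frontflip_GFAPCre animals had 555, 784 and 795. The SP1 animals had 599, 559.8, 674 and 346 at day 28 and 322, 312 and 220.3 at day 10. Rbp4Cre_TRAP animals had 193, 119, 199.7 and 451 CPM, from 11, 6, 8 and 11 insertions. BrokenHeart animals had 309, 193 and 306 CPM, from 18, 19 and 13 insertions. The highest mean, 2001 ± 753 in Frontflip_GFAPCreNeg (SD, n = 3), rested on 11, 6 and 13 insertions. In the order of means, each group's range overlapped that of the next below it, except for Frontflip_GFAPCreNeg, whose lowest animal stood above all of Syn1CreNeg.

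At Slc1a3 the means of the animal groups ran from 50.9 to 2002 CPM, a wider span than at Slc1a2. C57bl6J animals had 162 and 175 CPM. Syn1Cre animals had 155 to 772 (median 249.1), GFAPCre animals 296 to 696 (median 479), Syn1CreNeg animals 802 to 1098 (median 920.1) and GFAPCreNeg animals 566 to 1206 (median 607). Among the 6 Syn1Cre animals, 5 lay between 155 and 269 and replicate 5 was alone at 772. Frontflip_GFAPCre had 793, 822 and 1156 CPM. The day 28 SP1 animals had 608, 817, 857 and 322, and the day 10 animals 391.5, 479 and 252. Of the animal groups Rbp4Cre_TRAP was lowest, with 7, 2, 0 and 1 insertions and a mean of 50.9 ± 51.6 CPM (SD, n = 4). Its range did not overlap that of C57bl6J, the next group up. BrokenHeart animals had 240.2, 143 and 259 CPM and overlapped C57bl6J. Frontflip_GFAPCreNeg had 12, 7 and 10 insertions and a mean of 2002 ± 894 (SD, n = 3).

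Glul, the shortest locus, had the fewest insertions. C57bl6J animals had 42.7 and 35.7 CPM, Syn1Cre animals 41.4 to 92.5 (median 50.7) and GFAPCre animals 45.2 to 78.0 (median 71.1). Syn1CreNeg animals had 101 to 195 (median 119) and GFAPCreNeg animals 78.7 to 149 (median 87.6). Frontflip_GFAPCre had 97.3, 118 and 141 CPM. The SP1 animals had 121, 211, 176 and 76.2 at day 28 and 138, 78.0 and 52.4 at day 10. In Rbp4Cre_TRAP the counts were 2, 4, 1 and 1, in BrokenHeart 5, 9 and 9, and in Frontflip_GFAPCreNeg 1, 0 and 1. Each group overlapped the next in the order of means, from 146 ± 59.6 in Syn1Cre_SP1_P28 (SD, n = 4) to 39.2 ± 4.97 in C57bl6J (SD, n = 2). Per 10 kb of locus the median levels in CPM in GFAPCre were 25.6 at Slc1a2, 49.5 at Slc1a3 and 23.9 at Glul. In Syn1Cre they were 21.8, 25.8 and 17.0, so Slc1a3 was the densest of the 3 loci in both groups.

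N2a cells carried few insertions at the transporters. Of 806653 insertions, 1 fell at Slc1a2, 4 at Slc1a3 and 23 at Glul. With exact Poisson 95% intervals, which cover counting error only, the levels in CPM were 1.24 (0.0314 to 6.91), 4.96 (1.35 to 12.7) and 28.5 (18.1 to 42.8). The 23 insertions at Glul lay on 7 positions, and 14 of them on the site at -259 bases from the start. N2a is 1 table into which 3 experiments were combined, so its difference from the animals has no replicate check.

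**Figure D2:**
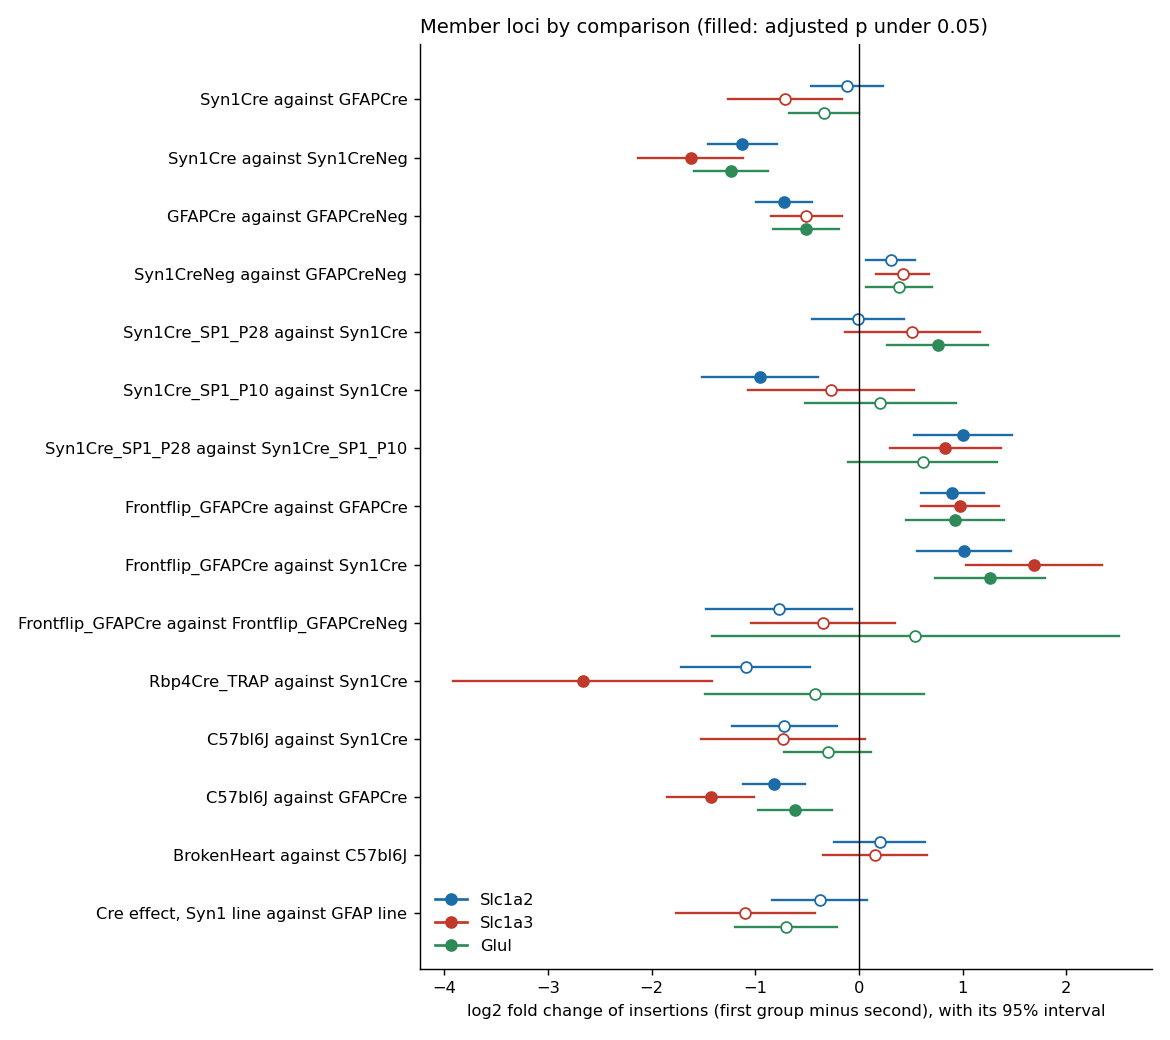
Log2 change at each locus in the comparisons between groups, from the edgeR fit over all gene loci, with 95% intervals. Filled points passed an adjusted p under 0.05. All 3 loci lay below 0 for Syn1Cre against Syn1CreNeg and above 0 for Frontflip_GFAPCre against GFAPCre.

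The loci were compared between groups with edgeR's quasi-likelihood test over all protein-coding loci that passed the low-count filter. All p-values are adjusted over those loci (Benjamini-Hochberg), and a call is an adjusted p under 0.05. Since a table sums the insertions of many cells, fewer carrying cells of a type and fewer insertions per cell cannot be told apart. The labels number the animals as replicates and name no litter or day, so the p-values measure the spread between these tables.

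Syn1Cre against GFAPCre sets the neuronal against the astrocyte Cre line. No member passed edgeR's test or DESeq2's after adjustment, and 1 of 3 had an unadjusted edgeR p under 0.05, where 2.15% of 11553 loci were called in either direction. The log2 difference was -0.11 at Slc1a2 (SE 0.18, 95% interval -0.46 to 0.23, adjusted p = 0.80), -0.72 at Slc1a3 (SE 0.28, adjusted p = 0.18) and -0.33 at Glul (SE 0.17, adjusted p = 0.33). The groups overlapped at every member. Syn1Cre replicate 5, the shallowest Syn1Cre table, was above all GFAPCre animals at Slc1a2, Slc1a3 and Glul. Without it, Slc1a3 was lower in Syn1Cre by 1.16 on the log2 scale (log2 change -1.16, adjusted p = 3.25e-05) and Glul had -0.46 (adjusted p = 0.049), and both passed, while Slc1a2 had -0.34 (adjusted p = 0.077). In that fit 835 of all loci were called in place of 248, so the gain in calls was not particular to the members. Syn1Cre replicates 1 to 3 alone, whose labels share their layout with GFAPCre, gave -0.49 at Slc1a2 (adjusted p = 0.011), -1.44 at Slc1a3 (adjusted p = 3.69e-06) and -0.50 at Glul (adjusted p = 0.059), with 1634 loci called. Syn1Cre libraries were pooled for sequencing with no other group, and the pool therefore cannot be told apart from the Cre line.

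Among 14 astrocyte marker loci, such as Aqp4, Gja1 and Aldoc, 13 were tested with edgeR and 0 passed after adjustment in this comparison (3 had an unadjusted p under 0.05), with a median log2 difference of -0.37 against -0.0024 over all loci. Their summed level ranged from 594 to 1941 CPM in Syn1Cre and from 767 to 1544 in GFAPCre. Of 12 neuron marker loci 11 were tested, and 3 were higher in Syn1Cre. Their sums ranged from 3779 to 4377 and from 3344 to 4138 CPM. No astrocyte or neuron marker was at 0 in all animals of either group.

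The members were lower in Syn1Cre than in mice of the same line without Cre. Slc1a2 had a mean of 382 ± 147 against 827 ± 75.4 CPM (SD, n = 6 each), with a log2 change of -1.12 (SE 0.17, adjusted p = 2.65e-05). For Slc1a3 the means were 314 ± 228 and 946 ± 104 (SD, n = 6 each), with a log2 change of -1.62 (SE 0.26, adjusted p = 4.30e-05). Glul had 55.9 ± 18.5 against 132 ± 35.5 (SD, n = 6 each), with a log2 change of -1.23 (SE 0.18, adjusted p = 2.13e-05). At all 3 loci every Syn1Cre animal lay below every Syn1CreNeg animal. The background is high here: 17.5% of 8613 tested loci were called lower, and 31.1% in either direction. Syn1Cre libraries shared no sequencing pool with Syn1CreNeg libraries, so any effect of the pool would coincide with Cre here. The part of the pool was not tested. Syn1CreNeg tables were also shallower on the whole (median 268446 insertions against 865698). With the log2 total as a covariate all 3 members still passed, with changes of -0.80, -1.21 and -0.85. Within replicates 1 to 3 of both groups the changes were -1.56, -2.34 and -1.58, and within replicates 4 to 6 they were -0.73, -1.09 and -0.99, and each passed.

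Of the 14 astrocyte marker loci, 12 were tested and 11 fell in Syn1Cre against Syn1CreNeg, with a median log2 change of -1.37 against 0.016 over all loci. The astrocyte sums were 594 to 1941 CPM in Syn1Cre and 1747 to 2633 in Syn1CreNeg. In contrast, 5 of 10 tested neuron marker loci were higher, with sums of 3779 to 4377 against 2637 to 3722. Of 5 tested oligodendrocyte lineage loci 2 fell, and 1 of 1 tested microglia loci fell, whereas 1 of 1 tested endothelium loci was higher. Their part in the change at the members was not tested.

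In the astrocyte line Slc1a2 and Glul were also lower than in mice without Cre. Slc1a2 fell by 0.72 on the log2 scale (log2 change -0.72, SE 0.14, adjusted p = 0.0013), from 660.2 ± 173 to 395 ± 77.4 CPM (SD, n = 6 each). Glul fell by 0.51 (SE 0.16, adjusted p = 0.046), and its 6 GFAPCre animals lay below all 6 GFAPCreNeg animals. Slc1a3 had -0.51 (SE 0.18, adjusted p = 0.071) and did not pass. It passed with distinct positions (adjusted p = 0.037), with 50 kb flanks (0.038), with no low-count filter (0.00071) and without GFAPCre replicate 3 or 4. With distinct positions and with 50 kb flanks Glul did not pass (adjusted p = 0.37 and 0.13), so which of Slc1a3 and Glul was called turned with the setting. Of 9203 tested loci 5.97% were called lower. Here depth moved with the groups, since every GFAPCre table was deeper than every GFAPCreNeg table. With the log2 total as a covariate the member values were -0.29, 0.14 and 0.044, with adjusted p of 0.70, 0.92 and 0.98. In that fit 0 of all loci were called, against 750 without the covariate. Since depth separated the groups fully, it cannot part depth from Cre, and the lost calls are not particular to the members. At the astrocyte markers 5 of 13 tested loci fell, with a median of -0.53 and sums of 767 to 1544 against 1490 to 3009 CPM. Of 8 tested neuron marker loci 1 was higher in GFAPCre and 0 lower, with a median of 0.19. Their sums were 3344 to 4138 against 2418 to 3516 CPM. The part of the markers in the change at the members was not tested. The Glul call was lost in 8 of the 12 fits that left out 1 animal: without GFAPCre 1, 2 or 6 and without GFAPCreNeg 2, 3, 4, 5 or 6, with adjusted p up to 0.17. Among animals that share sequencing pools, Slc1a2 kept its call at -0.78 (adjusted p = 0.018), whereas Slc1a3 had -0.63 (adjusted p = 0.096) and Glul -0.41 (adjusted p = 0.32).

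The difference between the Cre effects of the lines was tested directly as an interaction over the 4 groups. It was -0.38 at Slc1a2 (SE 0.23, adjusted p = 0.50), -1.09 at Slc1a3 (SE 0.34, adjusted p = 0.13) and -0.71 at Glul (SE 0.25, adjusted p = 0.20). None passed after adjustment (2 had an unadjusted p under 0.05), where 0.692% of 10550 loci did. Without Syn1Cre replicate 5 all 3 passed, with values of -0.62, -1.56 and -0.83, and 400 of all loci were called in place of 73. Without GFAPCreNeg replicate 6 Slc1a3 passed. Between mice without Cre of the Syn1 and GFAP lines no member passed after adjustment, although all 3 had an unadjusted p under 0.05. The values were 0.31, 0.42 and 0.39 higher in Syn1CreNeg, with adjusted p of 0.29, 0.17 and 0.33, and 0.0426% of 7040 loci were called. Without GFAPCreNeg replicate 6, which had the fewest insertions of its group, Slc1a2 and Slc1a3 passed at 0.42 and 0.60 (adjusted p = 0.0028 and 1.11e-05), and 337 loci were called in place of 3.

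**Figure D3:**
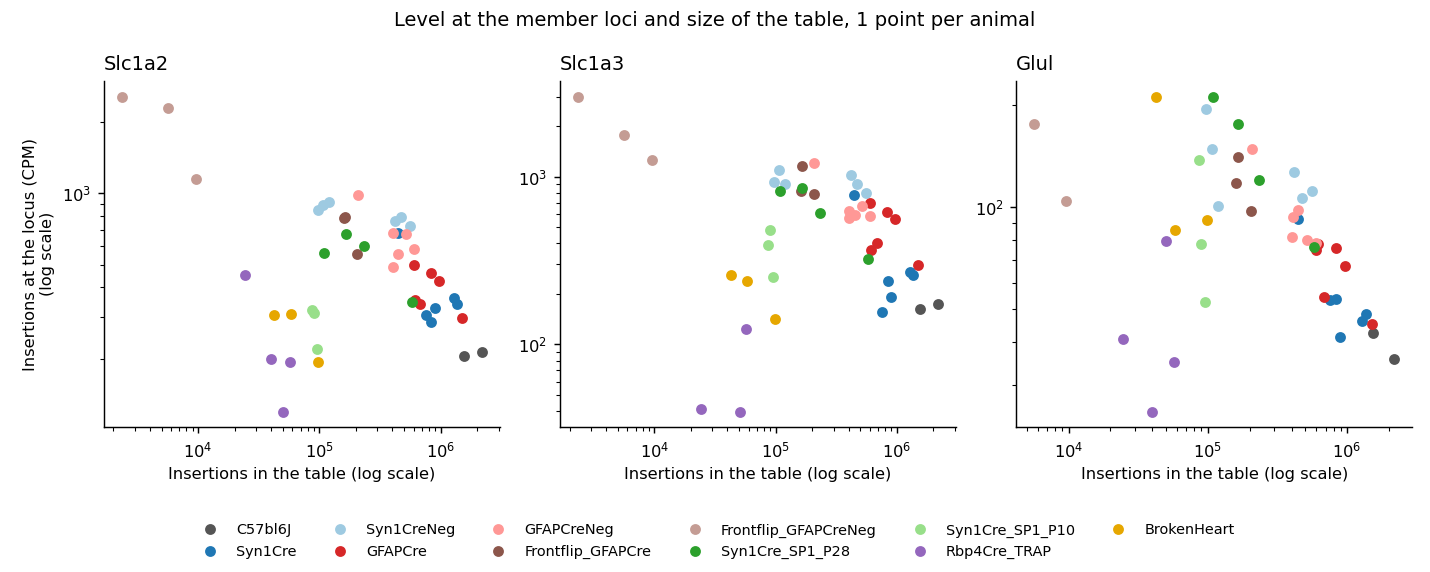
Insertions in CPM at each member locus (log axis) against the insertions of the table (log axis), coloured by group, without N2a and without animals that had 0 insertions at the locus. The 3 shallowest tables (Frontflip_GFAPCreNeg) held the highest levels of Slc1a2 and Slc1a3, and the next shallow ones include Rbp4Cre_TRAP, with the lowest Slc1a3 levels.

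Frontflip_GFAPCre was higher than GFAPCre at all 3 members. Slc1a2 rose by 0.90 on the log2 scale (SE 0.16, adjusted p = 0.0020), Slc1a3 by 0.98 (SE 0.19, adjusted p = 0.0045) and Glul by 0.93 (SE 0.24, adjusted p = 0.038). The 3 Frontflip_GFAPCre animals lay above all 6 GFAPCre animals at each locus. Of 10526 loci 1.5% were called higher. Frontflip_GFAPCre tables held 160631 to 205559 insertions and were all shallower than the GFAPCre tables, and the labels list them in another layout, so virus design, depth and layout cannot be told apart. All 3 calls were lost without Frontflip_GFAPCre replicate 3, with adjusted p of 0.062 at Slc1a2 and 0.16 at Slc1a3, and the Glul call was lost in 6 of 9 such fits. Without replicate 3, 16 of all loci were called in place of 184. At the astrocyte markers 4 of 14 tested loci rose, with a median of 0.63 and sums of 1445 to 2197 against 767 to 1544 CPM.

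Frontflip_GFAPCre was also higher than Syn1Cre, by 1.02 at Slc1a2 (SE 0.23, adjusted p = 0.014), 1.69 at Slc1a3 (SE 0.34, adjusted p = 0.0050) and 1.26 at Glul (SE 0.27, adjusted p = 0.0088). There 2.57% of 12017 loci were called higher. The calls were lost against Syn1Cre replicates 4 to 6 alone, which share the label layout, with adjusted p of 0.13, 0.058 and 0.058 for differences of 0.68, 1.17 and 1.08. They were lost as well without Frontflip_GFAPCre replicate 3, where 54 of all loci were called in place of 419. The Slc1a2 and Glul calls were also lost without Frontflip_GFAPCre replicate 2. All Frontflip_GFAPCre tables were shallower than the Syn1Cre tables and shared no sequencing pool with them. Virus design, Cre line, depth and pool cannot be told apart here. Against Frontflip_GFAPCreNeg no member passed after adjustment (1 had an unadjusted p under 0.05), at -0.77, -0.34 and 0.54 on the log2 scale with adjusted p of 0.16, 0.62 and 0.80, and 7% of the 1286 loci tested were called. A total of 61 insertions fell on the members in Frontflip_GFAPCreNeg, 2 of them at Glul. Without Frontflip_GFAPCre replicate 3 Slc1a2 passed (adjusted p = 0.034). At Slc1a2 and Slc1a3 all Frontflip_GFAPCre animals lay below all Frontflip_GFAPCreNeg animals in CPM. The values depend on the scaling: the median of all loci was 0.44 with TMM factors and -0.068 with plain totals of the tables. With plain totals 1 member passed.

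The SP1 groups differed from Syn1Cre at 6204 loci at day 28 and 5205 at day 10, and the members did not move together. At day 28 Glul rose by 0.76 on the log2 scale (SE 0.25, adjusted p = 0.013), with a mean of 146 ± 59.6 (SD, n = 4) against 55.9 ± 18.5 CPM (SD, n = 6), and the groups overlapped. Slc1a3 had 0.52 (SE 0.33, adjusted p = 0.20) and Slc1a2 -0.01 (SE 0.23, adjusted p = 0.99), although the mean level of Slc1a2 was 545 ± 141 (SD, n = 4) against 382 ± 147 CPM (SD, n = 6). The called share was 26.2% higher among 12053 loci and 51.5% in either direction, so 1 call among 3 members is near the background. At the astrocyte markers 3 of 14 loci rose, with sums of 1035 to 2144 against 594 to 1941 CPM. The neuron marker sums were 2707 to 2950 CPM at day 28 and did not overlap the 3779 to 4377 of Syn1Cre. Single neuron markers went both ways: of 12 tested, 6 were lower and 3 higher. The part of the markers in the change at the members was not tested. These values depend on the scaling. Between TMM factors and plain totals the median of all loci moved by 0.47, and on plain totals all 3 members passed as higher, at 0.50, 1.03 and 1.25. The Glul call was lost without day 28 replicate 2 or 3 (adjusted p up to 0.069) and, with the log2 total as a covariate, its value was -0.29. Without Syn1Cre replicate 5 Slc1a3 passed as well, at 0.98 (adjusted p = 5.83e-05), and 6575 of all loci were called in place of 6204. Syn1Cre has no stated age and shares no sequencing pool with the SP1 groups. The SP1 label, age and pool therefore cannot be told apart.

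At day 10 Slc1a2 was lower than in Syn1Cre by 0.96 on the log2 scale (log2 change -0.96, SE 0.28, adjusted p = 0.0089), where 20.6% of 12787 loci were called lower. Its mean level in CPM was 285 ± 56.2 (SD, n = 3) against 382 ± 147 (SD, n = 6). Slc1a3 had -0.27 (adjusted p = 0.62) and Glul 0.21 (adjusted p = 0.68), and neither passed. On plain totals, which moved the median of all loci by 0.53, no member passed and Slc1a3 had 0.29. The Slc1a2 call was lost without day 10 replicate 3 (adjusted p = 0.066). The day 10 tables held 86842 to 95331 insertions, all fewer than any Syn1Cre table (443158 to 1364948). The SP1 label, age, depth and sequencing pool cannot be told apart here, and no fit with the log2 total as a covariate was made at day 10. Between the SP1 ages, day 28 was higher than day 10 by 1.00 at Slc1a2 (SE 0.24, adjusted p = 0.010) and by 0.83 at Slc1a3 (SE 0.27, adjusted p = 0.046), whereas Glul had 0.61 (SE 0.37, adjusted p = 0.28). Of 3460 loci 7.46% were called higher. All day 10 animals lay below all day 28 animals at Slc1a2. Every day 10 table (86842 to 95331 insertions) was also shallower than every day 28 table (108965 to 577609), so age and depth cannot be told apart. The Slc1a3 call was lost in 6 of 7 fits without 1 animal, and the Slc1a2 call without day 10 replicate 2 or 3 (adjusted p up to 0.15).

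Rbp4Cre_TRAP had fewer insertions at Slc1a3 than Syn1Cre, with a log2 difference of -2.66 (SE 0.64, adjusted p = 0.022). Its 4 animals, 10 insertions in all, lay below all 6 Syn1Cre animals. At Slc1a2 the difference was -1.09 (SE 0.32, adjusted p = 0.061) and at Glul -0.43 (SE 0.54, adjusted p = 0.76). The median of all loci was -0.31 in this fit and -0.072 on plain totals, so the Glul value is near the general shift. Of 10693 loci 1.92% were called lower. The Slc1a3 call was lost without Rbp4Cre_TRAP replicate 2, 3 or 4 and without Syn1Cre replicate 4 (adjusted p up to 0.095). Slc1a2 passed without Syn1Cre replicate 5 (adjusted p = 0.014), where 465 of all loci were called in place of 226. Summed astrocyte markers were at 258 to 533 CPM in Rbp4Cre_TRAP, below all Syn1Cre animals, and 2 of the 14 markers were at 0 in all 4 animals. The Rbp4Cre_TRAP tables held 24408 to 57014 insertions, all fewer than any Syn1Cre table. Tissue (whole forebrain against cortex), the TRAP preparation, depth and Cre line cannot be told apart here.

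Wild-type mice were lower than GFAPCre at all 3 members. The difference was -0.82 at Slc1a2 (SE 0.15, adjusted p = 0.00056), -1.43 at Slc1a3 (SE 0.21, adjusted p = 3.99e-05) and -0.62 at Glul (SE 0.18, adjusted p = 0.023). The C57bl6J animals lay below all GFAPCre animals at each locus, and 5.49% of 13256 loci were called lower. Of the astrocyte markers 10 of 14 were lower, with a median of -0.87 and sums of 530.4 to 603 against 767 to 1544 CPM. The C57bl6J tables were the deepest of the series and shared no sequencing pool with another group. Mouse line, virus, depth and pool cannot be told apart, here or against Syn1Cre. The Glul call was lost in 4 of 8 fits without 1 animal (without C57bl6J 1 or 2, or GFAPCre 1 or 4, adjusted p up to 0.28). Against Syn1Cre, wild-type mice had -0.72, -0.73 and -0.30 with adjusted p of 0.21, 0.45 and 0.57 (1 had an unadjusted p under 0.05), and 0.81% of 14445 loci were called. Without Syn1Cre replicate 5 Slc1a2 passed (adjusted p = 0.049), and 250 of all loci were called in place of 117.

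BrokenHeart reads insertions from DNA rather than from RNA. Compared with C57bl6J it had 0.20 at Slc1a2 (SE 0.22, 95% interval -0.24 to 0.64, adjusted p = 0.49) and 0.15 at Slc1a3 (SE 0.26, 95% interval -0.35 to 0.65, adjusted p = 0.66), neither past the test, although 39.9% of 1879 loci were called in either direction. Glul did not pass the low-count filter. Its 5, 9 and 9 insertions gave 129.7 ± 71.1 CPM (SD, n = 3), against 39.2 ± 4.97 (SD, n = 2) in C57bl6J, and the groups did not overlap. DESeq2, which tested Glul, called it higher in BrokenHeart (adjusted p = 0.028). The BrokenHeart tables held 42511 to 98197 insertions, against 1545951 to 2186743 in C57bl6J, and the groups shared no sequencing pool. Reading from DNA, depth and pool cannot be told apart here.

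**Figure D4:**
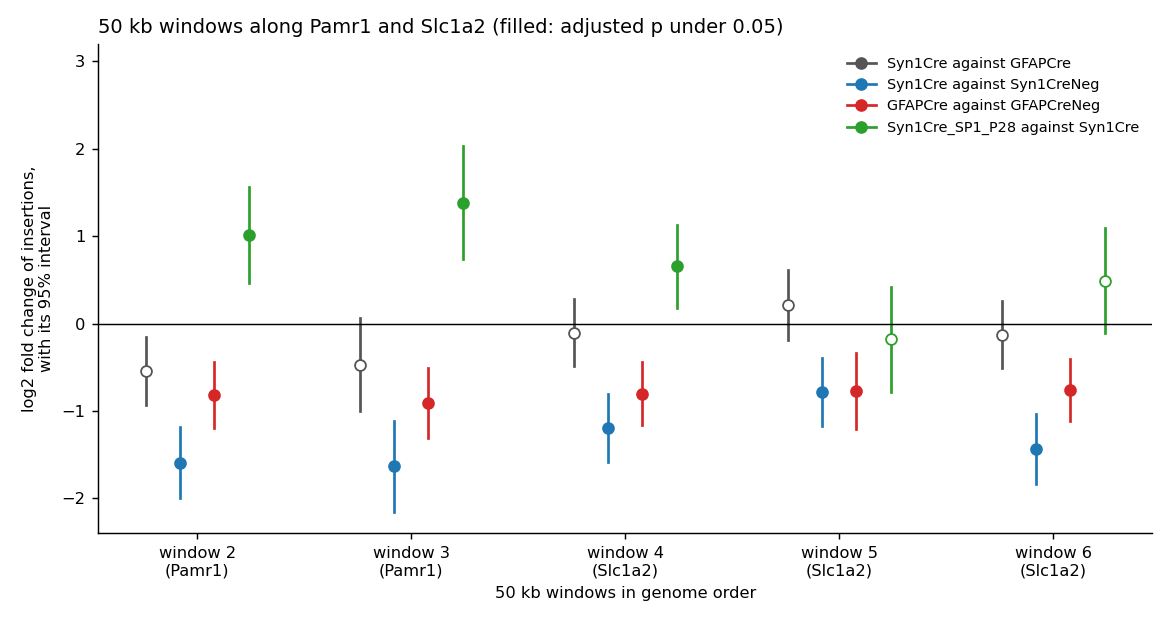
Log2 change in 50 kb windows along Pamr1 and Slc1a2, in genome order, for 4 comparisons with 95% intervals and filled points for an adjusted p under 0.05. All 5 windows were lower in Syn1Cre than in Syn1CreNeg, and windows 2 to 4, but not 5 and 6, passed as higher in Syn1Cre_SP1_P28.

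Windows of 50 kb resolved where along the Pamr1 and Slc1a2 region the changes lay. Of 7 windows, 5 were tested, 2 over Pamr1 and 3 over Slc1a2. The Pamr1 window nearest to Slc1a2 (chr2:102600001-102650000) and the Slc1a2 start window (chr2:102650001-102700000) were the richest, at 382 ± 101 and 289 ± 55.3 CPM in GFAPCre (SD, n = 6). Toward the end of Slc1a2 the level was 35.6 ± 11.7 and 50.7 ± 7.46 CPM in the last 2 windows (SD, n = 6).

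Against Syn1CreNeg all 5 windows were lower in Syn1Cre, by -1.59 and -1.63 over Pamr1 and -1.19, -0.78 and -1.43 over Slc1a2, where 17.4% of 14950 windows were called lower. In GFAPCre against GFAPCreNeg all 5 were lower, by -0.91 to -0.76, where 5.78% of 16934 windows were called lower. Between Syn1Cre and GFAPCre the values ran from -0.54 to 0.21, with adjusted p of 0.14 to 0.82, where 2.87% of 22468 windows passed. At day 28 the SP1 animals were higher in the Pamr1 windows, by 1.01 and 1.38 (adjusted p = 0.0060 and 0.0020), and in the Slc1a2 start window, by 0.65 (adjusted p = 0.036). The inner windows of Slc1a2 had -0.18 and 0.49 and did not pass. Of 20635 windows 20.6% were called higher. These window values rest on another scaling than the locus value, since TMM and plain totals gave 0.65 and 0.56 in the start window but -0.01 and 0.50 at the Slc1a2 locus. Pamr1 taken as a locus followed Slc1a2 in direction against the groups without Cre, at -1.58 and -0.83, and was higher in Frontflip_GFAPCre than in GFAPCre by 1.46 (adjusted p = 2.11e-05). The calls parted elsewhere. Pamr1 but not Slc1a2 was called higher at day 28 against Syn1Cre, by 0.73 (adjusted p = 0.046), and in BrokenHeart against C57bl6J, by 0.65 (adjusted p = 0.021). At day 10 against Syn1Cre, where Slc1a2 was called, Pamr1 had -0.42 (adjusted p = 0.40).

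**Figure D5:**
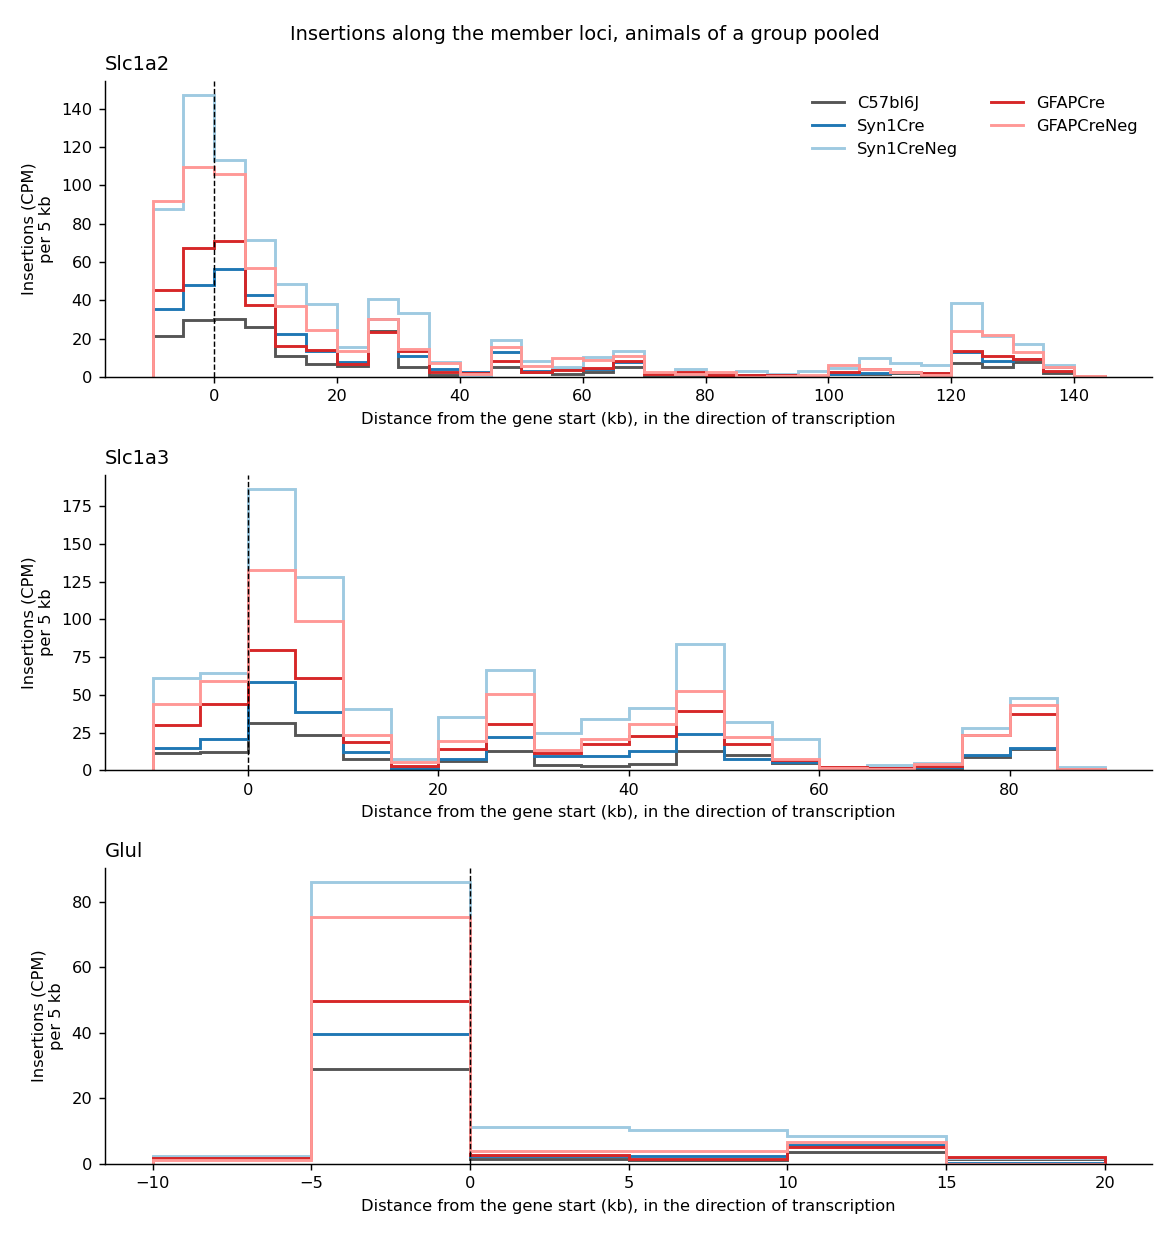
Insertions in CPM pooled over the animals of 5 groups in bins of 5 kb, by distance in kb from the start of each gene span. In Syn1Cre and GFAPCre the highest bins lay within 10 kb of the start at Slc1a2 and Slc1a3 and in the 5 kb before the start at Glul.

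Insertions gathered near the gene starts. At Slc1a2 the 20 kb around the start make up 13.1% of the locus and held 51.2% of insertions in Syn1Cre, 58.0% in GFAPCre and 62.8% in Syn1Cre_SP1_P28. At Slc1a3, where they make up 20.7% of the locus, they held 48.5%, 46.2% and 50.3%. A second rise lay 25 to 30 kb into Slc1a2, and others lay 25 to 30 and 45 to 50 kb into Slc1a3. At Glul 79.5% of Syn1Cre insertions and 82.2% of GFAPCre insertions lay in the 10 kb before the start, with 9.03% and 6.75% in the first 10 kb after it.

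The same TTAA sites were used in animal after animal. Of 570 positions used at Slc1a2, 180 were found in 10 or more animals, and they held 83.1% of the insertions. At Slc1a3 194 of 469 positions held 87.4%, and at Glul 19 of 100 held 80.4%. The positions found in most animals at Slc1a2 were chr2:102663139-102663142 (39 of 46 animals, 218 insertions), 4900 bases into the gene, and 2 sites at -7233 and -7730 bases from its start, in no RefSeq gene (39 and 38 animals). At Slc1a3 they were chr15:8709172-8709175 (37 animals, 265 insertions), 1635 bases into the gene, chr15:8707888-8707891 (37 animals), 2919 bases in, and chr15:8629121-8629124 (36 animals, 244 insertions), beyond the gene's end. At Glul few sites carried most of the level. The site at chr1:153895193-153895196, at -4736 bases from the start, was found in 42 of 46 animals with 479 insertions, which is 33.1% of the locus. This site and the next 2 in rank, at -259 and -332 bases from the start, lie in the lncRNA gene Gm38440. The 10 most used positions of Glul held 71.5% of its insertions, against 21.2% at Slc1a2 and 17.2% at Slc1a3. A level at Glul therefore counts repeated use of few sites.

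Orientation differed between sites as well. At Slc1a2 61.4% of Syn1Cre and 62.2% of GFAPCre insertions lay on the strand of the gene, and at Slc1a3 60.3% and 66.8%. At Glul it was 28.1% and 31.3%. The site at -259 bases from the Glul start had 1.09% of 184 insertions on the gene strand, and the site 1635 bases into Slc1a3 had 7.92% of 265. BrokenHeart had 36.0%, 53.8% and 52.2% at the 3 loci, from 50, 39 and 23 insertions. No test was made of these shares.

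The share of member insertions within 1 kb of a gene start was set against Syn1Cre in both SP1 groups. It was 6.76% ± 0.92 in Syn1Cre (SD, n = 6), 9.52% ± 1.50 in Syn1Cre_SP1_P28 (SD, n = 4) and 9.05% ± 1.21 in Syn1Cre_SP1_P10 (SD, n = 3). The difference was 2.76 percentage points at day 28 (exact two-sided permutation test, p = 0.0095, adjusted over 2 comparisons 0.019) and 2.29 at day 10 (exact permutation p = 0.024, adjusted 0.024). The smallest p these designs allow is 0.0048 and 0.012. Taken member by member, the groups overlapped. At Slc1a2 the shares were 4.95% ± 2.20 in Syn1Cre (n = 6) and 8.29% ± 2.85 at day 28 (n = 4), at Slc1a3 4.01% ± 1.28 and 4.92% ± 2.32, and at Glul 33.6% ± 4.28 and 35.9% ± 1.90 (SD). At day 10 (n = 3) they were 6.75% ± 3.00 at Slc1a2, 3.35% ± 3.03 at Slc1a3, below the Syn1Cre mean, and 43.5% ± 12.3 at Glul (SD). Glul, whose insertions lie closest to its start, made up 7.89% ± 1.62 of the member insertions in Syn1Cre, 10.7% ± 1.80 at day 28 and 11.7% ± 3.92 at day 10 (SD), so the summed share also moved with the balance between members. Groups without SP1 also varied. The share was 14.1% ± 4.92 in BrokenHeart (SD, n = 3), 13.3% ± 3.23 in Rbp4Cre_TRAP (n = 4) and 8.28% ± 3.03 in C57bl6J (n = 2). It was 8.12% ± 0.37 in Frontflip_GFAPCreNeg (n = 3), 7.99% ± 0.57 in GFAPCre (n = 6) and 7.61% ± 0.66 in Frontflip_GFAPCre (n = 3). GFAPCreNeg had 6.97% ± 0.93 and Syn1CreNeg 6.23% ± 1.73 (n = 6 each). In N2a it was 19 of 28 insertions.

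Across the 26 animals of Syn1Cre, Syn1CreNeg, GFAPCre, GFAPCreNeg and C57bl6J, log2 levels (CPM plus 1) of the members were correlated, with Pearson's r of 0.95 between Slc1a2 and Slc1a3, 0.92 between Slc1a2 and Glul and 0.91 between Slc1a3 and Glul. These points share the groups and depths, so no p is given. The loci most like Slc1a2 were Nt5c2 (r = 0.978), Cpe (0.978), Dio2 (0.977), Frmd4a (0.974) and Plpp3 (0.974). Those most like Slc1a3 were Sall1 (0.989), the cystine-glutamate exchanger gene Slc7a11 (0.983), Nfia (0.982) and Sparcl1 (0.981). For Glul they were Glud1, which encodes glutamate dehydrogenase (0.960), Cpe (0.958), Trim9 (0.951), Chd2 (0.949) and F3 (0.948).

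Other genes of glutamate transport and the glutamate-glutamine cycle, a list of 23, were counted in the same fits. Against Syn1CreNeg, 15 were tested, and 5 were higher and 4 lower in Syn1Cre, where 31.1% of all loci tested were called in either direction. Higher were Gad2 (log2 change 2.16) and Gad1 (2.00), which make GABA from glutamate, the vesicular glutamate transporter Slc17a6 (0.99), the glutamine transporter Slc38a2 (0.74) and the transaminase Got1 (0.74). Lower were Slc7a11 (-1.72), Aldh5a1 (-1.47) and Glud1 (-1.42), and the GABA transporter Slc6a11 (-0.77). Against GFAPCre, 4 of 19 were higher in Syn1Cre, namely Gad2 (1.95), Gad1 (1.80), Slc38a2 (0.67) and Slc17a6 (0.60), where 2.15% of all loci were called. In GFAPCre against GFAPCreNeg, Slc17a6 was higher (0.52) and Slc7a11 (-0.94) and Glud1 (-0.68) were lower, of 14 tested, where 8.15% of all loci were called in either direction. Gad1 and Gad2 were the only list members past the interaction test, at 2.30 and 2.37 (adjusted p = 0.018 and 0.025), of 16 tested, where 0.692% of all loci passed.

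Slc7a11 was higher in Frontflip_GFAPCre than in GFAPCre by 1.36, the only call among 15 tested list genes (1.75% of all loci were called in either direction), and lower in C57bl6J than in GFAPCre by -1.48 on the log2 scale. In that last comparison 7 of 20 list genes were higher, among them Gad2 (2.53), Gad1 (2.03) and Slc17a6 (1.17), and 3 lower, Slc7a11, Glud1 (-0.87) and Slc6a11 (-0.52), where 12.5% of all loci were called in either direction. In Syn1Cre_SP1_P28 against Syn1Cre, 5 of 18 were higher, led by the vesicular transporter Slc17a7 (1.77), and 4 lower, among them Got1 (-1.04) and Slc17a6 (-0.83). The called share of all loci was 51.5% there, so this count is at the background. In Syn1Cre_SP1_P10 against Syn1Cre, 5 of 22 were higher, led by the neutral amino acid transporter Slc1a5 (2.36), and 4 lower, which is again at the background, 40.7% of all loci. In Frontflip_GFAPCre against Syn1Cre, Slc7a11 was higher by 1.94 and Gad1 and Gad2 were lower, of 19 tested (3.49% of all loci were called). Between the SP1 ages Slc7a11 was higher at day 28 by 1.09 and Gad2 lower (-1.09), of 7 tested (11.2% of all loci were called). BrokenHeart was higher than C57bl6J at Slc6a11 (1.82), Slc7a11 (1.58) and Gad1 (1.44) and lower at Slc17a6 (-1.82), the 4 list genes tested (39.9% of all loci were called). The neuronal glutamate transporter Slc1a1 was among the genes lower than in Syn1Cre at both SP1 ages (-0.60 and -1.50). Median changes of the list were 0.24 for Syn1Cre against Syn1CreNeg, 0.21 against GFAPCre and -0.13 for GFAPCre against GFAPCreNeg.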

How the data were processed

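Per the labels' protocols, self-reporting transposon libraries were made from RNA (BrokenHeart libraries from DNA) and sequenced on several instruments. The submitters' processing notes name Novoalign, Bowtie2 and the build mm10, with no role or version. The authors deposited 1 table per animal or cell line, in which each row is an insertion with its position, strand and count of reads, and insertions (rows) were counted here. The filters behind the rows are not given in the sources used here. The number of insertions per table, given in the report, sets the precision.

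Rows were summed over RefSeq GRCm38.p6 protein-coding gene spans with 10 kb on each side, and over windows of 50 kb. Groups were compared in edgeR 4.0.16 (R 4.3.3, limma 3.58.1) with filterByExpr, TMM factors on the table totals, the quasi-likelihood test and Benjamini-Hochberg adjustment over all loci tested, with only the groups compared in the fit. The share near gene starts was compared by an exact permutation test. DESeq2 1.42.0, plain totals, distinct positions, a minimum of 2 reads, other flanks, the replicate number as a block and leaving out each animal were alternatives. Tables used Python 3.11.15 with pandas 2.3.3 and scipy 1.17.1. The fit was tested on simulated counts.

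The members, gene lists and tests were chosen with earlier results of these data known. List genes were named where called or among the 3 largest changes, the 5 most correlated loci were named for each member, and so were its 3 positions found in most animals. A few genes that this rule would name are not reported here. The log2 total as a covariate was added after seeing the data.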

Additional observations from a re-analysis of the deposited data

Results flagged for a closer look

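In Syn1Cre, replicate 5 lay apart from the other 5 animals at every member (Dixon's test). It had 677.0 CPM (insertions per 1000000 of the table) at Slc1a2, where the next animal had 359. At Slc1a3 it had 772 against 269, and at Glul 92.5 against 53.7. This animal had the shallowest Syn1Cre table (443158 insertions). In GFAPCreNeg, replicate 6 lay apart at Slc1a3, with 1206 against 672 CPM, and at Glul, with 149.0 against 98.5, and its table was the shallowest of that group (208057 insertions). In all, 5 of 18 sets of a member and a group were marked in this way, where chance marks about 1 in 20. All 5 came from Syn1Cre replicate 5 and GFAPCreNeg replicate 6. The members share animals and their levels are correlated, so the sets are not independent and the count cannot be set against chance.

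N2a cells, which enter no comparison, had 28.5 CPM at Glul, above the 3.72 that a count of 0 allows. Of the pathway list, Gad1 and Gad2, which make GABA, differed between the Cre effects of the Syn1 and GFAP lines, by an interaction of 2.30 (edgeR adjusted p = 0.018) and 2.37 (edgeR adjusted p = 0.025) on the log2 scale.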

How the results depend on the processing

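For Syn1Cre against Syn1CreNeg all 3 members passed under each alternative run, except that Glul was not tested with the gene body alone, and leaving out 1 animal gave 3 to 3. For the other comparisons the number of members called is given by setting where it differed from the report. With all animals in 1 fit, 1 was called for Syn1Cre against GFAPCre, 2 for day 28 SP1 against Syn1Cre, 1 for day 28 against day 10, 2 for Rbp4Cre_TRAP and 1 for the interaction. Syn1Cre animals 1 to 3 against GFAPCre gave 2. At least 2 reads gave 1 for GFAPCre against GFAPCreNeg, 1 for day 28 against day 10 and 2 for Rbp4Cre_TRAP. The gene body alone, where Glul was not tested, gave 1 for GFAPCre against GFAPCreNeg, 0 for the 3 SP1 comparisons and 1 for Frontflip_GFAPCre against Syn1Cre. Animals that share a pool gave 1 for GFAPCre against GFAPCreNeg, and the log2 total as a covariate 0. Plain totals gave 3 for day 28 against Syn1Cre, 0 for day 10 against Syn1Cre, 1 for day 28 against day 10 and 1 for Frontflip_GFAPCre against Frontflip_GFAPCreNeg. Distinct positions gave 2, 0 and 0 for the SP1 comparisons and 3 of 5 windows for GFAPCre against GFAPCreNeg. Flanks of 50 kb gave 0 for day 28 and for day 10 against Syn1Cre, 0 for Rbp4Cre_TRAP and 1 for BrokenHeart. DESeq2 gave 1 for day 28 against day 10 and 1 for BrokenHeart. Syn1Cre animals 4 to 6 gave 0 for Frontflip_GFAPCre against Syn1Cre. No low-count filter gave 3 for GFAPCre against GFAPCreNeg, 2 for Rbp4Cre_TRAP and 1 for the interaction. C57bl6J against GFAPCre had 2 in place of 3 with DESeq2, at least 2 reads, distinct positions, the gene body alone and the block on replicate number, and so had Frontflip_GFAPCre against GFAPCre with 50 kb flanks, all animals in 1 fit, distinct positions, the gene body alone and plain totals, and Frontflip_GFAPCre against Syn1Cre with distinct positions. Leaving out 1 animal gave 0 to 1 for BrokenHeart, C57bl6J against Syn1Cre, Frontflip_GFAPCre against Frontflip_GFAPCreNeg and day 10 against Syn1Cre. It gave 0 to 2 for Syn1Cre against GFAPCre, Syn1CreNeg against GFAPCreNeg, day 28 against Syn1Cre and Rbp4Cre_TRAP. It gave 0 to 3 for the interaction, day 28 against day 10 and Frontflip_GFAPCre against GFAPCre and against Syn1Cre, 1 to 3 for GFAPCre against GFAPCreNeg and 2 to 3 for C57bl6J against GFAPCre. Direction turned in 30 values, of which 26 were called neither in the report nor under the alternative, such as Slc1a3 at 0.29 for day 10 against Syn1Cre on plain totals and at 0.14 for GFAPCre against GFAPCreNeg with the covariate. The other 4 were as follows. Slc1a2 at day 28 against Syn1Cre had 0.50 on plain totals, Slc1a3 at day 10 against Syn1Cre 0.46 with the replicate block, and with the covariate Glul had 0.044 for GFAPCre against GFAPCreNeg and -0.29 for day 28 against Syn1Cre. The cause was not tested. Replicate numbers did not pair animals: over 53 same-numbered pairs the correlation of deviations ran from -0.214 to 0.168, and 5 were over 0.1. The replicate block gave 1 member for GFAPCre against GFAPCreNeg, 2 each for day 28 and day 10 against Syn1Cre, and 3 for day 28 against day 10. The count of all loci called ran, over the settings other than leaving out an animal, from 135 to 1634 (main 248) for Syn1Cre against GFAPCre, 964 to 4438 (2676) for Syn1Cre against Syn1CreNeg, 0 to 1167 (750) for GFAPCre against GFAPCreNeg, 0 to 29 (3) for Syn1CreNeg against GFAPCreNeg, 2839 to 9284 (6204) and 2280 to 7517 (5205) for the SP1 groups against Syn1Cre, 171 to 582 (387) between the SP1 ages, 89 to 348 (184), 137 to 1098 (419) and 24 to 702 (90) for Frontflip_GFAPCre against GFAPCre, Syn1Cre and Frontflip_GFAPCreNeg, 92 to 759 (226) for Rbp4Cre_TRAP, 5 to 1067 (117) and 698 to 2878 (1657) for C57bl6J against Syn1Cre and GFAPCre, and 349 to 1485 (749) for BrokenHeart. Depth limits Rbp4Cre_TRAP and Frontflip_GFAPCreNeg, with 0 to 13 insertions per animal at a locus.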
